A study of Mus musculus with 8 samples.

Results

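Carbohydrate sulfotransferases are Golgi enzymes that move sulfate from the activated donor PAPS onto sugars of mucins, keratan chains, chondroitin and heparan sulfate. In the colon, sulfated mucins secreted by goblet cells give the mucus much of its negative charge. Proteoglycans on the epithelial surface carry sulfated heparan and chondroitin chains. Transcripts of 10 such genes were followed here, chosen by symbol from the 24346 gene symbols of the deposited tables: Chst1, Chst2, Chst3, Chst4, Chst5, Chst11, Chst12, Chst15, Gal3st2 and Hs3st1. Each symbol was found once in every table.

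The samples were untreated colon epithelial cells, labelled as primary cells, of C57BL/6J mice. The 4 groups were wild-type, St6galnac6-/-, B3galt5D116A and B3gnt7-/-, each with 1 library from a male and 1 from a female, so 8 libraries in all. St6galnac6 is a sialyltransferase, B3galt5 a galactosyltransferase carrying the D116A substitution, and B3gnt7 an N-acetylglucosaminyltransferase that lengthens poly-N-acetyllactosamine, the chain that becomes keratan sulfate once sulfated. The comparisons ask how transcript levels differ between each mutant and wild-type. The labels give no age, no batch and no number of animals per library, and do not say how the cells were isolated or which part of St6galnac6 or B3gnt7 is deleted. P-values therefore measure only the spread between these libraries.

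The unit was FPKM, a value that corrects the fragments of a gene for transcript length and for library size, so levels of different genes are compared per length. FPKM sums ran from 518482 to 639537 per library, with 11392 to 11663 genes at 1 FPKM or more. Counts were not given, so no counting interval can be attached to a value, and a gene without a value above 0 is called listed at 0. Relative depth, read from the steps between low values, spanned 1 to 1.46. Only 27.9% to 34.0% of the low genes lay within 0.01 log2 units of the step, so it is a rough reading. By it, the wild-type male and female were lowest, at 1 and 1.06, against 1.18 to 1.46 in the mutants. The wild-type libraries also had the most genes at 0, with 9175 and 8901 against 8471 to 8823. The part of depth in differences between mutants and wild-type was not tested. Over all 24346 gene symbols, including those listed at 0, log2(FPKM + 1) values of any pair of libraries correlated at 0.989 to 0.995. St6galnac6 was at 218 and 232 FPKM in its own mutant against 368 and 343 in wild-type, and B3gnt7 at 68.8 and 142 against 215 and 189.8. Transcript of both targeted genes thus remained. The label of epithelium held in every library, with a summed level of 8609 to 11530 FPKM over 7 of 7 epithelial markers. Summed markers of other cells were low, at 9.29 to 21.3 FPKM for T and intraepithelial lymphocytes, 23.1 to 35.03 for myeloid cells, 0.212 to 0.922 for B and plasma cells and 2.95 to 4.66 for endothelium. Glia and neuron markers summed to 0.572 to 1.01 FPKM, with Sox10 listed at 0 throughout.

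The enzymes that act on N-acetylglucosamine (GlcNAc) and galactose include the gene with the highest level of the 10. Chst4 encodes a GlcNAc 6-O-sulfotransferase, known also for making the sulfated sialyl Lewis X ligands of L-selectin in high endothelial venules. It lies on chromosome 8 from 110029153 to 110039740 on the minus strand (mm10, GENCODE M21). Gal3st2, on chromosome 1 from 93861306 to 93876494 on the plus strand, encodes a galactose 3-O-sulfotransferase. Hs3st1, on chromosome 5 from 39613935 to 39755475 on the minus strand, encodes a heparan sulfate glucosamine 3-O-sulfotransferase, the enzyme that completes the antithrombin-binding site of heparin. These 3 genes had the highest levels of the 10, so sequence before their start sites is shown, to place beside the values what each gene carries there. The stretches come from RefSeq (GRCm38.p6), are written 5′ to 3′ on the gene's strand, and are limited to bases that no annotated exon covers. The Chst4 stretch, chr8:110039378-110039423, covers bases -89 to -44 relative to the start. Gal3st2, chr1:93861094-93861305, is given from -250 to -39, and Hs3st1, chr5:39644635-39644881, from -250 to -4. The sequence after the RefSeq start was found in a GENCODE transcript for Chst4 and Hs3st1, but not for Gal3st2. The Chst4 and Hs3st1 stretches lie inside the gene spans given above. Annotated starts of these genes further upstream were not searched. Capitals mark matches to a motif.
Chst4: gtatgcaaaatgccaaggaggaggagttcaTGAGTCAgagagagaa
Gal3st2: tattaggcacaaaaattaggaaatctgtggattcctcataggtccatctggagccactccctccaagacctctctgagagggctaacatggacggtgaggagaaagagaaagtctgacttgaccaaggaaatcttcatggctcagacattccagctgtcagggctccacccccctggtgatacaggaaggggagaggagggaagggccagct
Hs3st1: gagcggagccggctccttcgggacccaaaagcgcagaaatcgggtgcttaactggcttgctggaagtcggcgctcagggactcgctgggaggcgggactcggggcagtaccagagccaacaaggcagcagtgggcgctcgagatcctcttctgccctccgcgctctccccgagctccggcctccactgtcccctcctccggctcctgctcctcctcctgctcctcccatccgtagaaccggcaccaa

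The motifs searched on both strands in the 250 bases before the start were 5. The core promoter element TATAAA came first, and GGGCGG, the box bound by Sp1, was next. The others were TTTATG, bound by Cdx factors, then TGANTCA, known from AP-1, and last CAAAGTCCA, known from Hnf4. In all 32851 windows of that length in the RefSeq table, they occurred in 12.4%, 32.7%, 10.8%, 6.75% and 0.384%. The Chst4 window held TGANTCA from -59 to -53, shown above in capitals, and TTTATG from -119 to -114, outside the printed stretch. These matches did not overlap each other. The windows of Gal3st2 and Hs3st1 held none of the 5. The G and C content was 56.4% for Chst4, 51.6% for Gal3st2 and 66% for Hs3st1. These matches describe letters only, and no binding data were measured here.

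The levels of the 10 genes differed widely within each library. Chst4 ranged from 24.8 to 39.5 FPKM, Hs3st1 from 9.58 to 17.8, and Gal3st2 from 7.20 to 15.7. Chst15 and Chst11, which act on chondroitin, ranged from 1.55 to 2.76 and from 0.986 to 2.48 FPKM. Chst12, a chondroitin 4-O-sulfotransferase, stayed between 0.144 and 0.696 FPKM. The other 4 genes reached at most 0.202 FPKM in any library. In all 8 libraries Chst4 was above Hs3st1, and their ranges did not overlap. Hs3st1 was above Gal3st2 in 7 of 8 libraries, but the ranges overlapped, as they did for Chst15 and Chst11, with Chst15 higher in 6 of 8. Gal3st2 was apart from Chst15, and Chst11 from Chst12, in all 8 libraries. Among the 36 sulfotransferase genes of the lists used here, 5 had a mean of at least 10 FPKM: Chst4, Gal3st1, Hs6st1, Hs3st1 and Gal3st2. Another 9 lay between 1 and 10, and 22 under 1, of which 6 were listed at 0 in all libraries. Gal3st1, which makes the glycolipid sulfatide, and Hs6st1, a heparan 6-O-sulfotransferase, ranged from 22.9 to 33.5 and from 23.9 to 32.6 FPKM, so both overlapped Chst4. In both wild-type libraries Chst4 was below both of these genes.

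**Figure D1:**
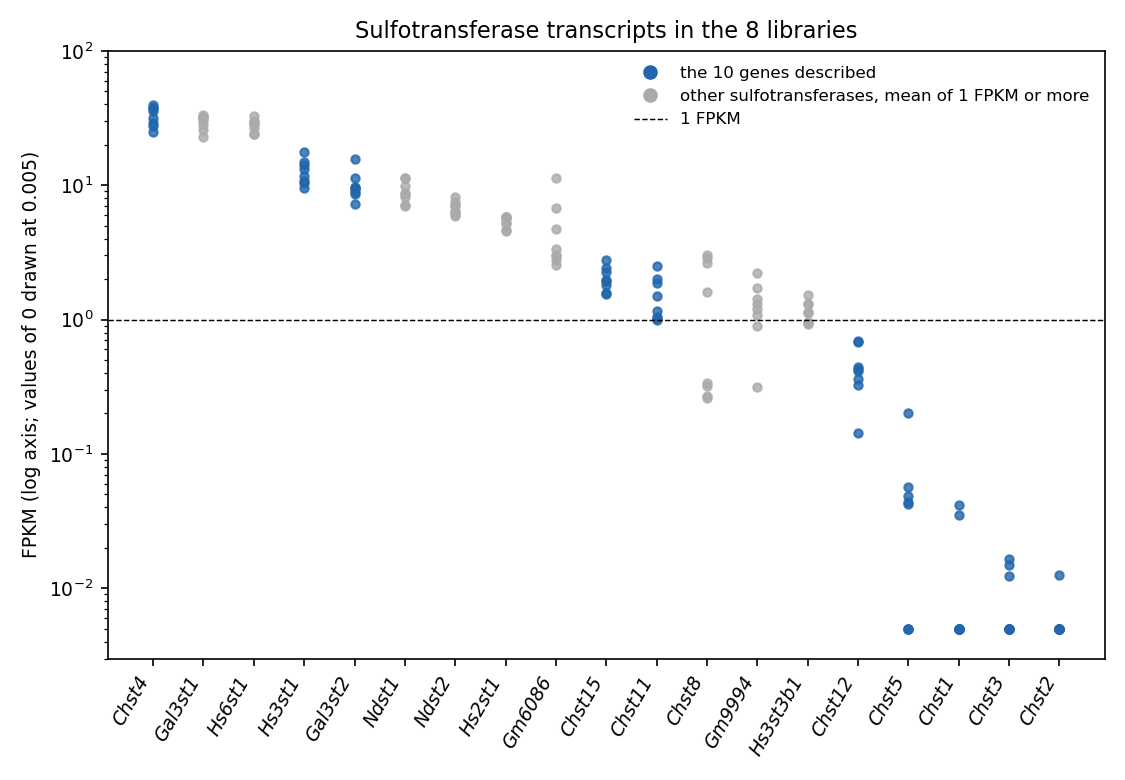
FPKM of sulfotransferase genes on a log axis, 1 point per library (8 per gene), ordered by mean level, with the 10 genes described in blue and others with a mean of at least 1 FPKM in grey. Values of 0 are drawn at 0.005, and the dashed line is 1 FPKM. Chst4 has the highest mean over the 8 libraries, at 24.8 to 39.5 FPKM, with ranges that overlap Gal3st1 and Hs6st1, and Chst1, Chst2, Chst3 and Chst5 lie near or at 0.

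Chst4 in wild-type was at 24.8 FPKM in the male and 28.9 in the female library. It was at 37.3 and 39.5 in St6galnac6-/-, 35.9 and 31.4 in B3galt5D116A, and 27.4 and 37.5 in B3gnt7-/-, male first. Both St6galnac6-/- and both B3galt5D116A libraries lay above both wild-type libraries, whereas the B3gnt7-/- male lay between them. The means were 26.8 ± 2.87 FPKM in wild-type, 38.4 ± 1.54 in St6galnac6-/-, 33.6 ± 3.17 in B3galt5D116A and 32.5 ± 7.14 in B3gnt7-/- (SD, n = 2 each). Against wild-type of the same sex, St6galnac6-/- was at 150% in males and 137% in females. The corresponding values were 145% and 109% for B3galt5D116A and 110.5% and 130% for B3gnt7-/-. On the log2(FPKM + 1) scale, the St6galnac6-/- difference was 0.51 (SE 0.16, 95% interval 0.13 to 0.88), with a limma p of 0.0149 before and 0.419 after Benjamini-Hochberg adjustment over 11537 genes. The differences were 0.32 (-0.06 to 0.69, adjusted p = 0.468) for B3galt5D116A and 0.25 (-0.12 to 0.63, adjusted p = 0.805) for B3gnt7-/-. Over the mean of the 3 mutants, the difference was 0.36 (0.05 to 0.66, adjusted p = 0.385). No Chst4 difference passed the threshold of 0.05. Single libraries set the size in 2 of the mutants. Without the B3gnt7-/- female library the difference of that mutant was 0.05 (adjusted p = 0.941), and without the male it was 0.45. In B3galt5D116A it was 0.10 without the male library of that mutant and 0.53 without the female.

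**Figure D2:**
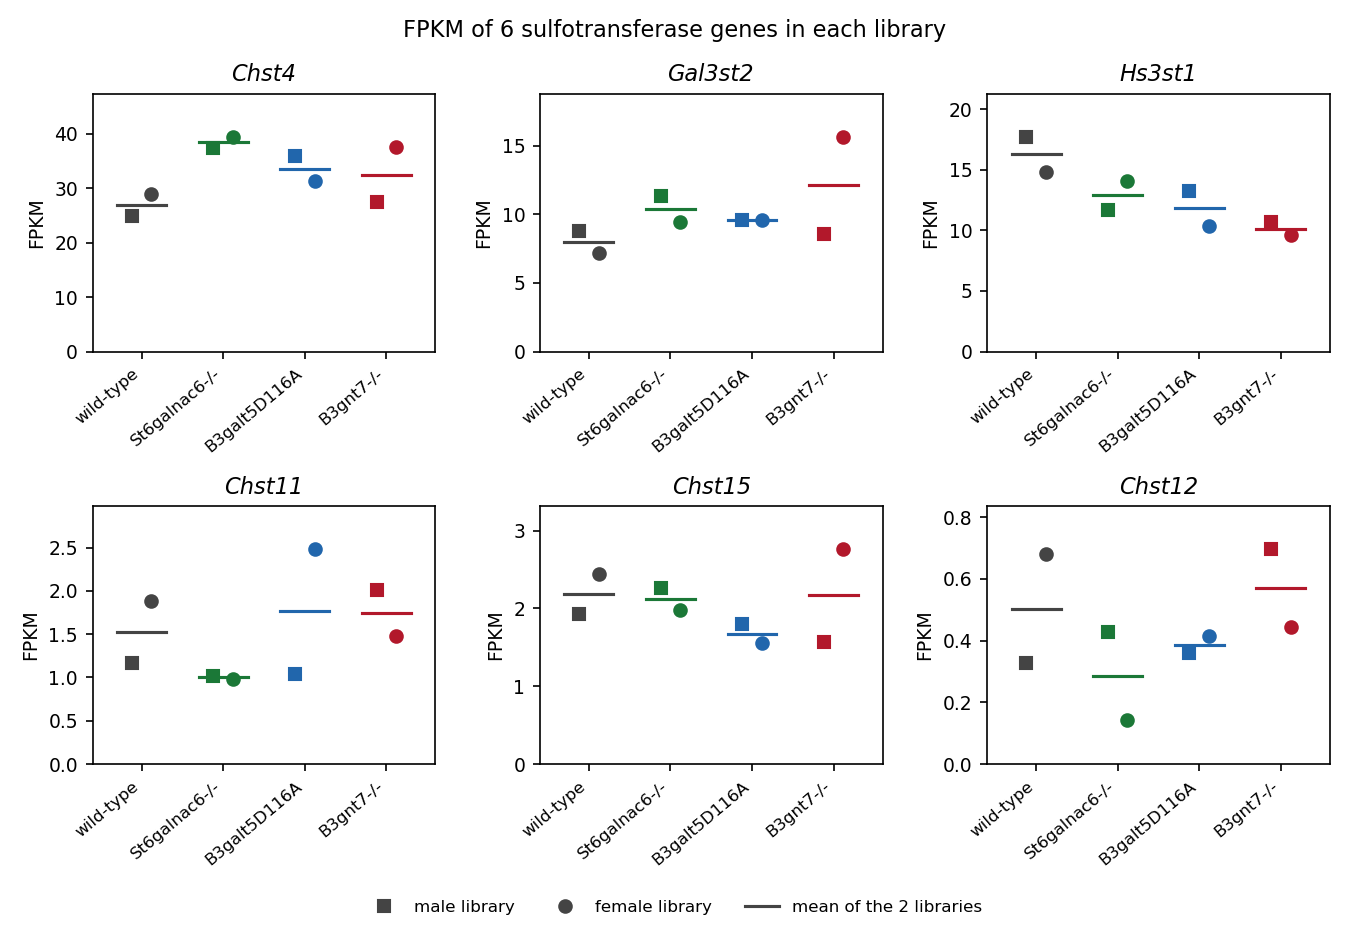
FPKM of 6 sulfotransferase genes by genotype, on axes that start at 0. Squares are male libraries, circles female libraries, and lines the mean of the 2. The 6 mutant libraries lie below both wild-type libraries for Hs3st1, as for 8.32% of all genes tested, and 5 of them lie above both for Chst4.

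The goblet cell markers were read beside Chst4, and they did not all follow it. The summed level of 10 of 10 goblet markers, none of them at 0, was 7405 and 7133 FPKM in the wild-type libraries and 9955 to 13188 in the 6 mutant libraries, with no overlap. Of the 10 markers, 6 were above both wild-type libraries in every mutant library: Fcgbp, Clca1, Zg16, Spdef, Spink4 and Reg4. Over all genes tested, 7.23% lay above in the same way. Spink4 had 1099 and 968 FPKM in the wild-type pair and 1869 to 3225 in the mutants. The other 4 (Muc2, Agr2, Tff3 and Atoh1) were mixed. The main secreted mucin Muc2 had 1399 FPKM in the wild-type male and 1250 in the female, 1045 in the St6galnac6-/- male and 1374 to 1786 in the other 5 mutant libraries. Ratios to the summed level therefore depend on which markers dominate it. Per 1000 FPKM of goblet markers, Chst4 had 3.35 and 4.05 FPKM in the wild-type pair and between 2.75 and 3.40 in the mutants. By this ratio 5 of the 6 mutant libraries lay below both wild-type libraries, and the St6galnac6-/- male, at 3.40, lay between them. In bulk samples, fewer cells of a type and less RNA per cell cannot be told apart, and the part of goblet cells in the Chst4 values was not tested.

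**Figure D3:**
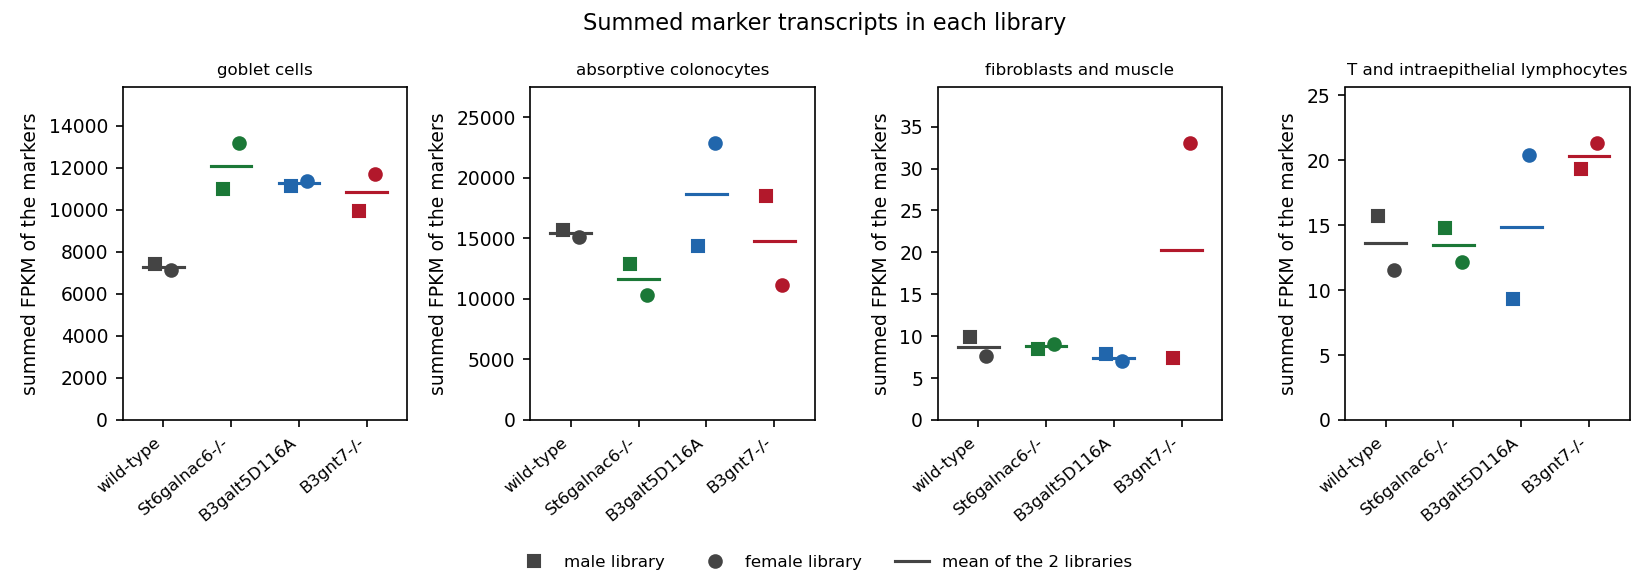
Summed FPKM of marker genes of goblet cells, absorptive colonocytes, fibroblasts and muscle, and T and intraepithelial lymphocytes, by genotype, with squares for male libraries, circles for female libraries and lines for the mean of the 2. The goblet sum is higher in the 6 mutant libraries (9955 to 13188) than in wild-type (7133 and 7405), and the fibroblast and muscle sum is 33.1 in the B3gnt7-/- female library.

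Gal3st2 was at 8.82 and 7.20 FPKM in the wild-type male and female. It was at 11.4 and 9.42 in St6galnac6-/-, 9.60 and 9.61 in B3galt5D116A, and 8.60 and 15.7 in B3gnt7-/-. The first 2 mutants lay above both wild-type libraries, and the B3gnt7-/- pair differed most from each other. The means were 8.01 ± 1.150, 10.4 ± 1.38, 9.61 ± 0.0123 and 12.1 ± 5.02 FPKM (SD, n = 2 each). The log2 differences from wild-type were 0.34, 0.24 and 0.50 (SE 0.25 each) in the order given, with limma adjusted p from 0.708 to 0.750. Without the B3gnt7-/- female library, the difference of that mutant was 0.01 (adjusted p = 0.987), and it was 0.98 without the male and 0.27 without the wild-type female. The B3galt5D116A difference was 0.02 without the wild-type female library and 0.46 without the wild-type male. In St6galnac6-/- it was 0.13 without the male of that mutant, 0.55 without the female, 0.12 without the wild-type female and 0.56 without the wild-type male. The size of each Gal3st2 difference thus rests on single libraries. The B3gnt7-/- female library had the highest sum of 10 fibroblast and muscle markers, 33.1 FPKM against 7.002 to 9.92 in the other 7, with Dcn at 18.9 against 2.101 to 3.35. The part of those cells in the Gal3st2 value was not tested. Per 1000 FPKM of goblet markers, Gal3st2 had 1.19 and 1.01 FPKM in the wild-type pair and 0.715 to 1.34 in the mutants, which overlapped.

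Gal3st2 shares transcript sequence with neighbouring copies, so its reads may be split between them. Of its 3081 distinct transcript stretches of 50 bases, 2193 (71.2%) also occur in transcripts of other genes, namely Gal3st2b and Gal3st2c on the same chromosome. Gal3st2b (chromosome 1 from 93918311 to 93942650) and Gal3st2c (from 93990509 to 94017147) are listed in the tables under the older symbols Gm9994 and Gm6086. Of their own stretches of 50 bases, 84.4% for Gal3st2b and 10.9% for Gal3st2c also occur in transcripts of other genes. How the authors' counting divided such reads is not given in the sources used here, so each of the 3 values is uncertain on its own. Gm9994 had 0.315 and 0.898 FPKM in the wild-type pair and at 1.08 to 2.23 in the 6 mutant libraries. Gm6086 was at 2.97 and 2.54 in wild-type, 2.75 and 3.35 in St6galnac6-/-, 3.004 and 11.2 in B3galt5D116A and 6.81 and 4.68 in B3gnt7-/-. The female B3galt5D116A value stood far above the male one. The sum of the 3 copies was 12.1 and 10.6 FPKM in wild-type, 15.9 and 13.9 in St6galnac6-/-, 13.9 and 22.3 in B3galt5D116A, and 16.6 and 22.6 in B3gnt7-/-. All 6 mutant sums were above both wild-type sums. Neither copy passed the limma test in a comparison with wild-type. By the same measure of shared stretches, Chst4, Chst5, Chst11 and Chst12 shared 0%, and Hs3st1 shared 0.989%.

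**Figure D4:**
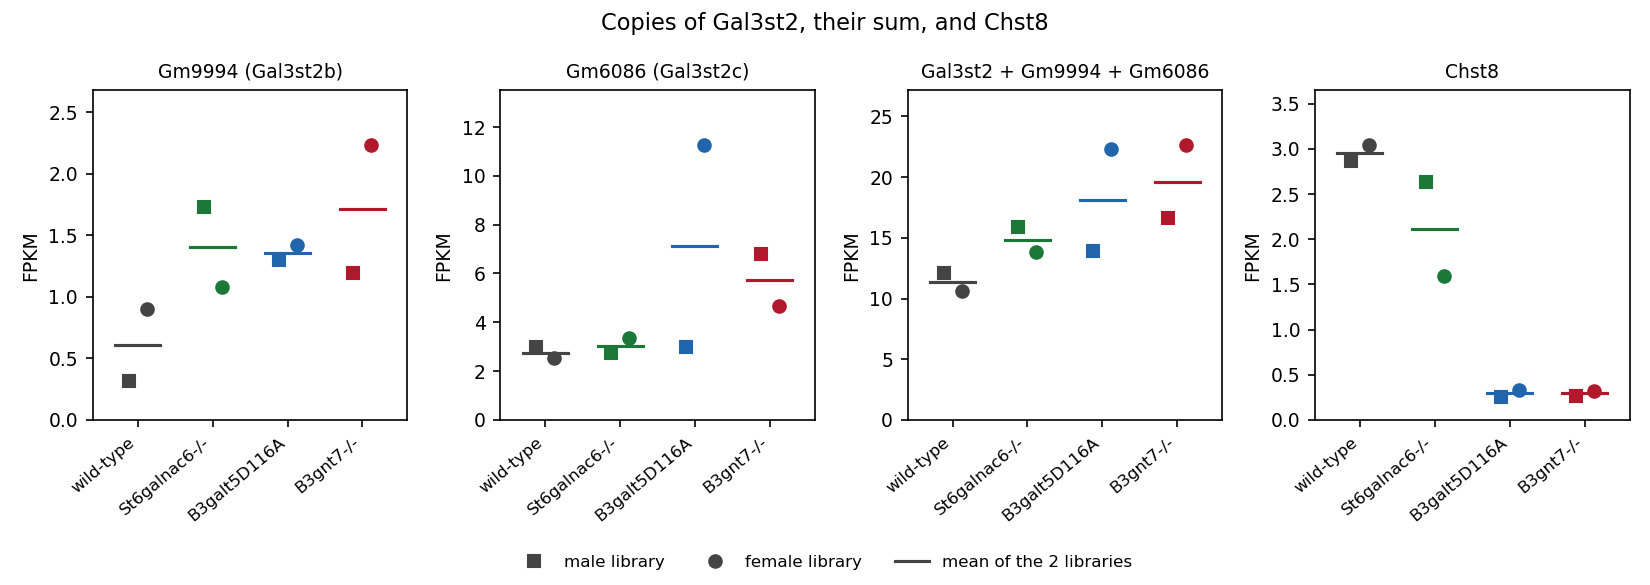
FPKM of Gm9994 (Gal3st2b), Gm6086 (Gal3st2c), the sum of these with Gal3st2, and Chst8, by genotype, with squares for male libraries, circles for female libraries and lines for the mean of the 2. The sum is 10.6 and 12.1 in wild-type and 13.9 to 22.6 in the mutants. Chst8 is at 0.259 to 0.336 in the B3galt5D116A and B3gnt7-/- libraries.

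Chst5, Chst1 and Chst2, the other genes of the GlcNAc and galactose group among the 10, were at the floor of the data. Chst5 encodes a further GlcNAc 6-O-sulfotransferase, on chromosome 8 from 111889136 to 111910447. It was listed at 0 in 3 libraries, the wild-type male and both B3galt5D116A libraries, and at 0.0424 to 0.202 FPKM in the other 5. Its highest value, 0.202, was in the B3gnt7-/- female library. Chst1, which sulfates galactose of keratan chains, was at 0.0416 FPKM in the wild-type male and 0.0354 in the B3gnt7-/- female, and listed at 0 in the other 6. Chst2, another GlcNAc 6-O-sulfotransferase, was above 0 in the St6galnac6-/- female library alone, at 0.0126 FPKM. Levels this low allow no comparison of genotypes, and none was made. Among the 3 GlcNAc 6-O-sulfotransferases of the set, Chst4 was thus the one with a level above 1 FPKM in any library.

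Chst8 belongs to the same family and was not among the 10, but the largest difference of its list was there. It encodes a GalNAc 4-O-sulfotransferase known for acting on pituitary hormones, on chromosome 7 from 34674468 to 34812711. It had 2.87 and 3.04 FPKM in the wild-type pair and 2.63 and 1.59 in St6galnac6-/-. In B3galt5D116A it was at 0.259 and 0.336, and in B3gnt7-/- at 0.268 and 0.320. These last 4 libraries lay far below the other 4. The log2 difference from wild-type was -1.61 in B3galt5D116A (SE 0.22, limma adjusted p = 0.0886) and -1.61 in B3gnt7-/- (SE 0.22, adjusted p = 0.148), so neither passed. With the sex term left out of the fit, the B3galt5D116A difference passed (adjusted p = 0.0450), an alternative run after the values were seen. Of the 14 genes of that list, 12 were found by symbol, 4 were tested and 0 passed in any comparison with wild-type.

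The chondroitin group was low throughout. Chst11, a chondroitin 4-O-sulfotransferase on chromosome 10 from 82985498 to 83195900, had 1.16 FPKM in the wild-type male, 1.88 in the wild-type female, and 1.02 and 0.986 in St6galnac6-/-. It was at 1.04 and 2.48 in B3galt5D116A and at 2.01 and 1.48 in B3gnt7-/-. The St6galnac6-/- libraries were the lowest, and in B3galt5D116A the female was higher than every other library. T and intraepithelial lymphocyte markers summed to 9.29 FPKM in the B3galt5D116A male and 20.4 in the female, 15.7 and 11.5 in wild-type, 14.8 and 12.2 in St6galnac6-/-, and 19.3 and 21.3 in B3gnt7-/-. Their part in the Chst11 values was not tested. The log2 differences from wild-type were -0.32, 0.09 and 0.13 (SE 0.27 each), with limma adjusted p from 0.786 to 0.941. Chst15, which adds a 6-O-sulfate to GalNAc that already carries a 4-O-sulfate, lies on chromosome 7 from 132235780 to 132317228. It had 1.93 and 2.44 FPKM in the wild-type pair, 2.26 and 1.98 in St6galnac6-/-, 1.80 and 1.55 in B3galt5D116A, and 1.57 and 2.76 in B3gnt7-/-. Both B3galt5D116A libraries lay below both wild-type libraries, and the others overlapped them. Its log2 differences were -0.03, -0.25 and -0.03 (SE 0.22 each, adjusted p from 0.649 to 0.986). The Chst11 differences in B3galt5D116A and B3gnt7-/-, and the Chst15 differences in St6galnac6-/- and B3gnt7-/-, changed sign when single libraries were left out. The annotation places other genes over parts of both loci, and strand use in the counting is not given in the sources used here, so reads of overlapping genes could be included.

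Chst12, on chromosome 5 from 140505550 to 140525724, had 0.326 and 0.681 FPKM in wild-type, 0.429 and 0.144 in St6galnac6-/-, 0.359 and 0.414 in B3galt5D116A and 0.696 and 0.443 in B3gnt7-/-. Every mutant overlapped wild-type. It was under the mean of 1 FPKM needed for the test. Chst3, the chondroitin 6-O-sulfotransferase, was listed at 0 in 5 libraries and reached at most 0.0166 FPKM, in the wild-type female. Of the 8 chondroitin and dermatan sulfotransferases listed, 2 were tested and 0 passed.

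Of the 10 genes, 5 of them tested, only Hs3st1 had all 6 mutant libraries on the same side of both wild-type libraries. Such a pattern was common, with 8.32% of all 11537 genes tested below and 7.23% above in this way. Hs3st1 was at 17.8 and 14.8 FPKM in the wild-type male and female, 11.7 and 14.1 in St6galnac6-/-, 13.2 and 10.4 in B3galt5D116A, and 10.7 and 9.58 in B3gnt7-/-. The highest mutant value, 14.1, was close to the lower wild-type value of 14.8. The means were 16.3 ± 2.07, 12.9 ± 1.70, 11.8 ± 2.003 and 10.1 ± 0.801 FPKM (SD, n = 2 each). Against wild-type of the same sex, the males were at 65.8%, 74.5% and 60.4% and the females at 95.1%, 70.2% and 64.7%, in the same order of mutants. The log2 differences were -0.32 (95% interval -0.69 to 0.06), -0.44 (-0.81 to -0.06) and -0.63 (-1.002 to -0.26), with an SE of 0.16 each. The limma p-values were 0.0847, 0.0278 and 0.00520 before adjustment and 0.611, 0.395 and 0.443 after it. For the mean of the 3 mutants, the difference was -0.46 (-0.76 to -0.16), with an adjusted p of 0.289. No Hs3st1 difference passed. The St6galnac6-/- difference rests on single libraries: it was -0.07 without the male of that mutant and -0.56 without the female. The B3galt5D116A difference ran from -0.57 to -0.30 and the B3gnt7-/- difference from -0.72 to -0.54 with 1 library left out, the latter at -0.61 without the B3gnt7-/- female. The 3 comparisons share the wild-type libraries, so they are not separate observations. Of 15 heparan sulfotransferases listed, 6 were tested and 0 passed. In B3galt5D116A, the log2 difference was -0.28 for Hs6st1 (adjusted p = 0.467) and -0.35 for Ndst1, which starts heparan sulfation (adjusted p = 0.497).

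**Figure D5:**
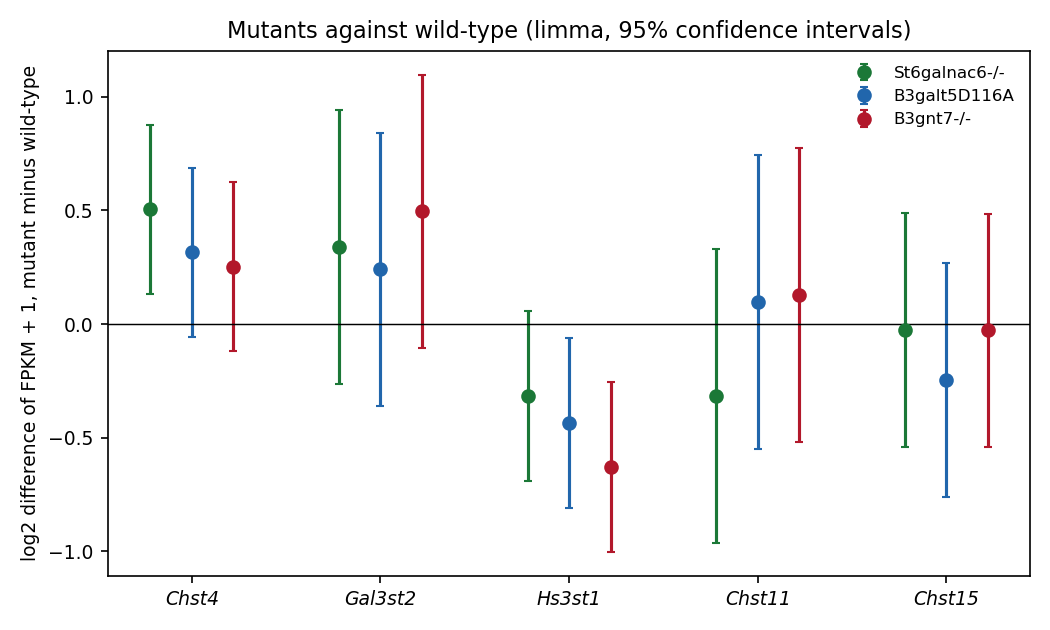
Differences of log2(FPKM + 1), mutant minus wild-type, for the 5 genes tested, with 95% confidence intervals from limma (2 libraries per genotype). Intervals exclude 0 before adjustment for Chst4 in St6galnac6-/- and for Hs3st1 in B3galt5D116A and B3gnt7-/-, and none passed after adjustment.

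Counted as a set, 5 of the 10 genes passed the filter of a mean of at least 1 FPKM and were tested: Chst4, Chst11, Chst15, Gal3st2 and Hs3st1. Limma called 0 of 5 in each comparison with wild-type, and 1 of 5 was under an unadjusted p of 0.05 in each. Over all genes tested, 0.0867% were called in St6galnac6-/-, 0.078% in B3galt5D116A and 0.052% in B3gnt7-/-, and 1043, 1355 and 827 of the 11537 genes were under an unadjusted p of 0.05. For the mean of the 3 mutants, 0 of 5 were called, against 0.182% of all genes. There 2 of 5 were under an unadjusted p of 0.05, against 11.3% of all genes. Between mutants, 0 of 5 were called and 0 were under an unadjusted p of 0.05. The share of all genes called was 0.026% for B3galt5D116A against St6galnac6-/-, 0.0433% for B3gnt7-/- against St6galnac6-/- and 0.00867% for B3gnt7-/- against B3galt5D116A. In the same order, 3.51%, 3.81% and 4.2% of all genes were under an unadjusted p of 0.05. Between males and females the 5 differences ran from -0.22 to 0.12 (limma adjusted p = 0.9998 each). There 0 of 5 were called and 0 were under an unadjusted p of 0.05, against 0.052% and 1.66% of all genes. With so few calls in the whole tables, a count of 0 among 5 is near the background. The median log2 difference of the 5 genes was -0.03, 0.09 and 0.13 in the 3 mutants, against 0.0030, 0.0012 and -0.0095 over all genes tested.

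Groups of 2 that do not overlap were common over all genes. In St6galnac6-/-, 2 of the 5 genes lay wholly above wild-type (Chst4 and Gal3st2), against 24.1% of all genes, and 2 wholly below (Chst11 and Hs3st1), against 23.6%. In B3galt5D116A, 2 lay above (the same pair), against 26%, and 2 below (Chst15 and Hs3st1), against 25.3%. In B3gnt7-/-, 0 lay above, against 16%, and 1 below (Hs3st1), against 18.6%. Over all 6 mutant libraries, 0 lay above, against 7.23%, and Hs3st1 alone lay below, against 8.32% of all genes (960). An exact permutation test of 2 against 2 libraries cannot give a p under 0.333, so none was run.

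Seen as shares of the set, Chst4 and Hs3st1 did not overlap between wild-type and the mutants, whereas Gal3st2 did. Chst4 held 45.2% and 51.6% of the summed FPKM of the 10 genes in the wild-type male and female, and 53.7% to 59.7% in the mutants. Hs3st1 held 32.4% and 26.5% in wild-type and 14.1% to 21.4% in the mutants. For Gal3st2 the shares were 16.1% and 12.9% in wild-type and 14.2% to 23.2% in the mutants. The ratio of Chst4 to Hs3st1 was 1.40 and 1.95 in wild-type and 2.56 to 3.92 in the mutants, with no overlap. The shares and this ratio were formed after the values were seen. A larger share of 1 gene lowers those of the others, and the ratio joins 2 genes that differ in opposite directions. No test was therefore made of them.

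The genes around the sulfotransferases were read from lists of the pathway. In the comparisons with wild-type, 0 members of any list passed. Of the sulfate uptake and activation genes, 9 of 13 were tested. Papss2, which makes PAPS, had 207 FPKM in the wild-type male, 212 in the female and 166 to 332 in the mutants. The sulfate transporter Slc26a2 had 168 and 204 FPKM in the wild-type pair and at 133 and 113 in B3galt5D116A, a log2 difference of -0.59 (adjusted p = 0.413). The anion exchanger Slc26a3 had a difference of -0.42 for the mean of the 3 mutants (adjusted p = 0.377). Papss1 had a difference of -0.26 in B3gnt7-/- (adjusted p = 0.700). In every library Papss2 and Slc26a2 were thus at higher FPKM than any of the 10 sulfotransferases.

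Among 11 sulfatases and activators, 10 were tested. Sumf2, related to the sulfatase-activating enzyme, had a log2 difference of 0.62 in St6galnac6-/- (adjusted p = 0.390). Sulf2, which removes 6-O-sulfate from heparan chains, had 0.63 for the mean of the 3 mutants (adjusted p = 0.404), and Arsg -0.42 in B3galt5D116A (adjusted p = 0.455). Of 15 enzymes of N-acetyllactosamine chains, the chains that carry GlcNAc and galactose, 13 were tested. B4galt1, which adds the galactose of these chains, had 35.8 and 41.5 FPKM in the wild-type pair, 20.6 and 23.7 in St6galnac6-/- and 27.9 to 30.9 in the other mutants. All 6 mutant values were below both wild-type values, as for 8.32% of all genes tested. The B4galt1 difference in St6galnac6-/- was -0.78 (SE 0.11, limma adjusted p = 0.0816) and did not pass. B3gnt6 and B3gnt2, which add GlcNAc, had -0.71 (adjusted p = 0.242) and -0.53 (adjusted p = 0.274) there. Of 19 glycosaminoglycan chain enzymes 16 were tested, with log2 differences of -0.33 for Ext1 (adjusted p = 0.548) and 0.32 for Extl2 (adjusted p = 0.655) in St6galnac6-/-, and -0.29 for Xylt2 in B3gnt7-/- (adjusted p = 0.741). Of 21 core proteins 13 were tested. The log2 difference was 0.60 for the hyaluronan receptor Cd44 (adjusted p = 0.253) and -0.52 for the heparan sulfate proteoglycan Agrn (adjusted p = 0.449) in B3galt5D116A. For the membrane mucin Muc1 it was -1.08 in St6galnac6-/- (adjusted p = 0.461).

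Genes whose pattern over the 8 libraries was most like each of the 3 leading members were found by Pearson correlation of log2 values over the genes tested. For Chst4 these were Bclaf1 (r = 0.98), Ubap2l (r = 0.98) and Slc23a3 (r = 0.95). For Hs3st1 they were Gga1 (r = 0.96), Exosc6 (r = 0.96) and Frmd8 (r = 0.94). For Gal3st2 they were Slc2a4rg-ps (r = 0.95), Sec61a2 (r = 0.94) and C3 (r = 0.94). With the 2 libraries farthest from the member's median left out, r stayed at 0.92 to 0.97 for Chst4 and 0.90 to 0.99 for Hs3st1, and dropped to 0.64, 0.80 and 0.67 for Gal3st2. C3 was at 42.6 FPKM in the B3gnt7-/- female library and at most 5.94 in the other 7. Spearman's rho for these 9 genes ran from 0.833 to 0.976. The r values are descriptions over 8 libraries that share genotype and depth, picked as the highest of 11532 genes, and carry no p.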

How the data were processed

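RNA of colon epithelial cells was sequenced with the TruSeq stranded mRNA kit after extraction with the miRNeasy Micro Kit, per the labels' protocols. The authors deposited 1 table of FPKM values per library, per the file headers, which are normalized values and not counts. Per the submitters' processing notes, the build was mm10, and the tools were Cuffdiff 2.2.1, TopHat2 2.1.1, SAMtools 0.1.18 and Bowtie2 2.2.8. The annotation, the strand setting and the scaling between libraries are not given in the sources used here. Libraries were grouped by the labelled genotype.

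Values were taken as log2(FPKM + 1). Genes entered the test when their mean over the libraries reached 1 FPKM, which 11537 did. The tool was limma 3.58.1, run under R 4.3.3 (lmFit, contrasts.fit, and eBayes set to trend=TRUE). Its 1 fit held all 8 libraries, with terms for genotype and sex. P-values are two-sided and adjusted by Benjamini-Hochberg over those genes, with a threshold of 0.05. The spread is assumed to be alike in all genotypes, and the added 1 shrinks log2 differences of genes with low FPKM. A genotype by sex interaction could not be fitted with 1 library per combination. The fit was run on simulated data, with added differences larger than any difference from wild-type of the 5 genes tested. That run does not show how often differences of their size would be found.

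The 10 genes and all lists were chosen with earlier results of these data known. Named besides the 10 are the Gal3st2 copies, up to 3 genes per list with the smallest p in comparisons with wild-type, and the 3 genes most like each of the 3 members with the highest mean. Gene positions are from GENCODE M21, and promoter sequences from RefSeq. Protein sequences were not used here. Alternatives were each library left out in turn, no sex term, fitting only the compared genotypes, median centring, quantile normalization, pseudocounts of 5 and 0.1, and a filter at a mean of 5 FPKM or none. Those for Chst8 and B4galt1 were added after their values were seen.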

Additional observations from a re-analysis of the deposited data

How the results depend on the processing

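Under every alternative run, limma called 0 of the 10 genes in any comparison. Their log2 differences from wild-type were recomputed with the other pseudocounts and scalings, without the sex term and without each library, and not under the other filters or the fit of only the genotypes compared. Over these the smallest adjusted p of the 5 genes tested was 0.101, and 188 of 195 values kept their direction. The other 7 changed sign when a library was left out: the Chst11 difference ranged from -0.27 to 0.46 in B3galt5D116A and from -0.20 to 0.46 in B3gnt7-/-, and the Chst15 difference from -0.20 to 0.14 in St6galnac6-/- and from -0.31 to 0.25 in B3gnt7-/-. Chst8, which is not among the 10, was recomputed under the same settings as those genes. It passed in B3galt5D116A with no sex term (limma adjusted p = 0.0450) and under no other of these settings. Whether Chst8 passed under the other filters or in a fit of only the genotypes compared was not computed. Its difference in B3galt5D116A ran from -2.95 at a pseudocount of 0.1 to -0.59 at a pseudocount of 5. Those extremes reflect the value added to low FPKM. B4galt1 in St6galnac6-/- had adjusted p from 0.0516 to 0.764.

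The counts of all genes called were less stable. For St6galnac6-/- against wild-type, 10 genes were called, 0 with no filter (limma, 1406 at an unadjusted p under 0.05), 23 with no sex term, 49 in a fit of only the genotypes compared, and 2 to 31 with 1 library left out, the highest without either B3gnt7-/- library. For B3galt5D116A against wild-type the count was 9, with 1 under no filter, 16 with no sex term and 3 to 13 with 1 library left out. For B3gnt7-/- against wild-type it was 6, with 3 at a mean of at least 5 FPKM, 2 with no filter and 3 to 36 with 1 library left out. For the mean of the 3 mutants it was 21, with 1 under no filter, 40 with no sex term and 2 to 68 with 1 library left out. For B3galt5D116A against St6galnac6-/- it was 3, with 1 under no filter, 7 with no sex term, 10 in a fit of only these genotypes, 5 at a pseudocount of 0.1 and 1 to 10 with 1 library left out. For B3gnt7-/- against St6galnac6-/- it was 5, with 2 at a mean of at least 5 FPKM, 1 with no filter, 8 in a fit of only these genotypes, 3 at a pseudocount of 5 and 2 to 39 with 1 library left out. For B3gnt7-/- against B3galt5D116A it was 1, with 0 under no filter (849 unadjusted), 2 with no sex term, 0 after quantile normalization (470 unadjusted) and 0 to 35 with 1 library left out. Between males and females it was 6, and 5 to 6 with 1 library left out. The cause of these moves was not tested. The main test already matches libraries by sex, and the labels give no replicate number that could pair them otherwise. Without counts, what depth limits at low FPKM cannot be given.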

Other observations

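Summed by list, sulfotransferase transcripts were spread unevenly. The list named for GlcNAc, galactose and keratan chains gave 13 genes. These are the 12 found by symbol and the 2 Gal3st2 copies, less Chst7, which is also on the chondroitin list and was counted there. The 13 genes summed to 70.3 and 76.7 FPKM in the wild-type male and female and to 76.8 to 89.3 in the mutants. Among them is Gal3st1, which makes sulfatide, at 22.9 to 33.5 FPKM over the 8 libraries. Chst8, which acts on GalNAc, is also included. This sum is therefore not one of enzymes for GlcNAc, galactose and keratan chains alone. The 15 heparan genes summed to 72.7 and 68.4 FPKM in wild-type and to 53.3 to 66.8 in the mutants, all 6 of them below both wild-type libraries. This sum includes Hs3st1, whose 6 mutant values were themselves below both wild-type values. Of the other heparan genes tested (Hs6st1, Ndst1, Ndst2, Hs2st1 and Hs3st3b1), none had all 6 mutant values below both wild-type values. The separation of the sum is therefore not a decrease shown by each heparan gene. The 8 chondroitin and dermatan genes summed to 3.70 and 5.59 FPKM in wild-type and to 3.77 to 5.21 in the mutants. These sums were formed after the values were seen and were not tested. Enteroendocrine markers summed to 78.2 to 256 FPKM and tuft cell markers to 1.96 to 6.58 FPKM over the 8 libraries.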
